A study of Mus musculus with 6 samples.

Results

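MHC class II genes encode the machinery that displays peptides from endocytosed protein to CD4+ T cells. The set described here holds 10 of the 46078 gene rows of the deposited table, chosen by symbol as a class II chain, chaperone or transactivator: H2-Aa, H2-Ab1, H2-Eb1, Cd74, H2-DMa, H2-DMb1, H2-DMb2, H2-Oa, H2-Ob and Ciita. All 10 had a row and all 10 were among the 15147 genes tested. Polyadenylated RNA was sequenced from alveolar macrophages, which live in the lung airspaces, sorted from untreated mice. Car4fl/fl-CD11cCre mice (3 libraries, called Cre below) carried loxP-flanked alleles of the carbonic anhydrase gene Car4 and a Cre recombinase under CD11c control. Car4fl/fl mice (3 libraries, called floxed below) carried the same loxP-flanked alleles without the Cre. CD11c is also expressed by dendritic cells and other leukocytes, so the Cre is not particular to alveolar macrophages, and without a group that carried the Cre and unfloxed Car4, deletion of Car4 and presence of the Cre cannot be told apart. The sources used here give no age, sex or strain.

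Values are CPM, read counts relative to library size after TMM scaling, and log2 fold changes are Cre minus floxed. Gene counts summed to 53824475 to 65443314 in a library, and 3 counts correspond to 0.0465 to 0.0557 CPM. Car4, the targeted gene, was at 40.2, 46.9 and 36.3 CPM in the Cre libraries and at 499, 385 and 270.4 CPM in the floxed libraries, which gave a log2 fold change of -3.23 ± 0.22 (SE; adjusted p 0.0047, edgeR quasi-likelihood test with Benjamini-Hochberg adjustment over all tested genes). This call was lost without floxed library 2 (adjusted p 0.0549). All 12 alveolar macrophage markers examined, of which Chil3 and Mrc1 had the highest CPM, reached 1 CPM in every library. The first principal component, with 47.0% of the variance, placed the Cre libraries at 0.444, 39.8 and 39.4 and the floxed libraries at -29.7, -27.3 and -22.5, so that Cre library 1 lay between the other Cre libraries and the floxed libraries. Nothing in the labels says whether libraries were made on different days, so no batch could be examined.

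A class II molecule is a dimer of an alpha and a beta chain. In the mouse the I-A molecule is built from the products of H2-Aa and H2-Ab1, and H2-Eb1 encodes the beta chain of I-E. The invariant chain, encoded by Cd74, fills the peptide groove of a new dimer and directs it to endosomes, where proteases trim it to a short remnant. H2-DM, a dimer of H2-DMa with H2-DMb1 or H2-DMb2, exchanges that remnant for peptide, and H2-O, made from H2-Oa and H2-Ob, restrains H2-DM. Transcription of these genes depends on the transactivator encoded by Ciita, which does not bind DNA itself but docks on a complex of RFX, CREB and NF-Y proteins at the conserved X and Y boxes of the promoters. Resident alveolar macrophages are known for low class II levels compared with dendritic cells.

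H2-Oa, H2-DMa, H2-DMb2, H2-DMb1, H2-Ob, H2-Ab1, H2-Aa and H2-Eb1 lie in that order in the class II region of mouse chromosome 17, between 34092340 and 34316674 in GRCm38. H2-Oa extends from 34092340 to 34095234, H2-DMa from 34119541 to 34139101, H2-DMb2 from 34143307 to 34151555 and H2-DMb1 from 34153072 to 34160230. H2-Ob extends from 34238903 to 34254414, H2-Ab1 from 34257689 to 34269419, H2-Aa, the only 1 of the 8 on the minus strand, from 34282744 to 34287823 and H2-Eb1 from 34305867 to 34316674. Cd74 and Ciita lie on other chromosomes. The promoters below are shown because these neighbours share promoter elements and yet differ in how far their transcripts varied. A RefSeq promoter (GRCm38.p6, 250 bases before to 50 after the start) was available for 7 of the 10 genes. Each line gives 67 bases, read 5′ to 3′ on the gene's own strand, with matches to TGATTGG (a Y box sequence) and to ATGATG (part of the X box) in capitals. H2-Aa lies at chr17:34287855-34287921 on the minus strand, and the plus-strand windows are H2-Eb1 at chr17:34305758-34305824, H2-DMb1 at chr17:34153080-34153146, H2-DMb2 at chr17:34145109-34145175, H2-Ob at chr17:34238798-34238864 and H2-Oa at chr17:34092286-34092352.
H2-Aa: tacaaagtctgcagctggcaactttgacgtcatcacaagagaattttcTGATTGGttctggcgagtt
H2-Eb1: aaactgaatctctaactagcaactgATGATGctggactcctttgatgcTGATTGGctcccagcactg
H2-DMb1: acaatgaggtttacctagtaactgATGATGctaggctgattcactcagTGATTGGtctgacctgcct
H2-DMb2: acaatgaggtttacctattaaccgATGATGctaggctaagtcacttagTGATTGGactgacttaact
H2-Ob: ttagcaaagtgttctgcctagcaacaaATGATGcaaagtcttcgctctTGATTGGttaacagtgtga
H2-Oa: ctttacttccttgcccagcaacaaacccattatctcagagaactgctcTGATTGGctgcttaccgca

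Both motifs were written down after these sequences had been read, and were searched on both strands of the 300-base promoters. TGATTGG occurred in 6 of the 7 genes, all but H2-DMa, against 7.82% of 32851 mouse promoters. ATGATG occurred in 4 of the 7, H2-Eb1, H2-DMb1, H2-DMb2 and H2-Ob, against 11.2% of all promoters. In these 4 genes it stood 15 to 18 bases before TGATTGG. The pair at this spacing was found in 5 of all promoters (0.0152%), and 4 of those 5 are these genes themselves. Because the spacing was set from these genes, its low share over all promoters is no independent evidence about them. H2-DMb1, H2-DMb2 and H2-Ob have the same arrangement as H2-Eb1, and their transcripts differed less between libraries than that of H2-Eb1. A match to these letters is a description of the sequence and does not show binding.

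The genes for the class II chains, the invariant chain and the transactivator were lower in the Cre libraries on average, but 1 of the 3 floxed libraries was about as low. H2-Aa was at 27.9, 31.6 and 54.5 CPM in Cre libraries 1, 2 and 3 and at 336, 201 and 35.8 CPM in floxed libraries 1, 2 and 3. H2-Ab1 was at 38.7, 41.3 and 74.6 CPM in the Cre libraries and at 447, 274 and 48.7 CPM in the floxed libraries. Floxed library 3 therefore sat inside the range of the Cre libraries for both chains of I-A, and floxed libraries 1 and 2 lay far above it. The log2 fold change was -2.33 ± 0.69 (SE) for H2-Aa and -2.32 ± 0.68 for H2-Ab1, with adjusted p of 0.223 for both (edgeR quasi-likelihood, Benjamini-Hochberg).

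H2-Eb1 was at 25.2, 28.2 and 49.8 CPM in the Cre libraries and at 199.7, 121 and 24.7 CPM in the floxed libraries, so that floxed library 3 lay just below all 3 Cre libraries. Its log2 fold change of -1.75 ± 0.64 (SE) had an adjusted p of 0.317 (edgeR). The alpha chain partner of H2-Eb1 is an annotated polymorphic pseudogene in the reference genome, H2-Ea-ps, which had 1 count in Cre library 1 and 0 in the other libraries. H2-Eb2, a second beta-like gene of the region, was at 0.186, 0.496 and 1.08 CPM in the Cre libraries and at 0.282, 0.116 and 0.264 CPM in the floxed libraries. Its values overlapped between the groups and its log2 fold change of 1.39 ± 0.64 (SE) had an adjusted p of 0.417 (edgeR).

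Cd74 (chromosome 18, 60803848 to 60812652) was at 105, 101 and 190.1 CPM in the Cre libraries and at 1297, 777 and 153 CPM in the floxed libraries. The log2 fold change was -2.49 ± 0.67 (SE; edgeR adjusted p 0.1903). Floxed library 3 again lay within the Cre range. Per kilobase of annotated exon, Cd74 averaged 78.6 ± 30.01 CPM in the Cre libraries and 442 ± 341 CPM in the floxed libraries (SD, n = 3 each). On the same length-corrected scale H2-Ab1 averaged 20.1 ± 7.78 CPM in the Cre libraries and 99.9 ± 77.7 CPM in the floxed libraries. H2-Aa averaged 10.01 ± 3.79 and H2-Eb1 17.7 ± 6.91 CPM per kilobase in the Cre libraries, against 50.3 ± 39.6 and 59.3 ± 45.1 CPM per kilobase in the floxed libraries. In the Cre libraries the order per kilobase then ran from Cd74 and H2-DMa (72.5 ± 4.404) to H2-DMb1 (37.3 ± 1.23), H2-Ab1, H2-Eb1, H2-Aa, H2-DMb2 (9.16 ± 1.19), H2-Oa (1.34 ± 0.123), Ciita (0.428 ± 0.0869) and H2-Ob (0.419 ± 0.0806). The mean ± SD ranges of neighbours in that order overlapped, except for H2-DMa over H2-DMb1, H2-DMb1 over H2-Ab1, H2-DMb2 over H2-Oa and H2-Oa over Ciita. The length merges the exons of all annotated transcripts of a gene, 3798 bases for H2-Aa and 1944 for H2-Eb1. It can exceed that of the transcripts present, which were not examined, so the order between genes depends on the annotation. Among these 4 genes the order per kilobase was Cd74, H2-Ab1, H2-Eb1, H2-Aa in each of the 6 libraries. In floxed library 1 these 4 were at 772, 174, 103 and 88.4 CPM per kilobase and in floxed library 3 at 91.0, 19.0, 12.7 and 9.43.

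**Figure D1:**
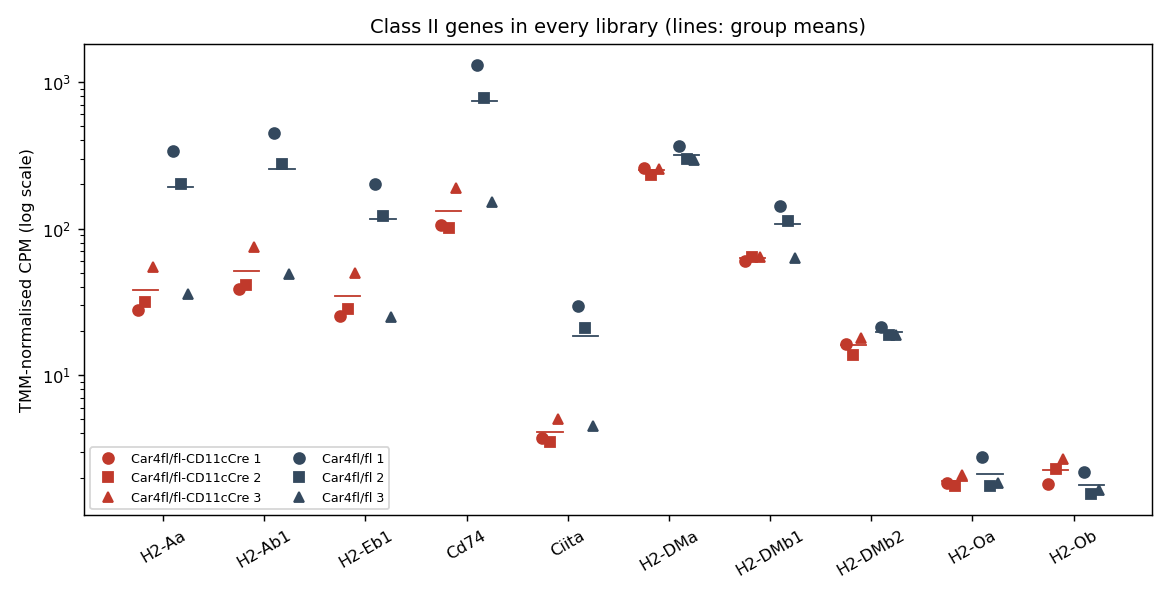
TMM-normalised CPM on a log axis (vertical) for the 10 class II genes (horizontal) in each library, with Car4fl/fl-CD11cCre in red, Car4fl/fl in dark blue, a symbol for each replicate number and lines at the group means. For H2-Aa, H2-Ab1, H2-Eb1, Cd74, Ciita and H2-DMb1, floxed libraries 1 and 2 stand above the other 4 libraries.

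Ciita (chromosome 16, 10480059 to 10528418), far lower per kilobase, had the same library pattern as the chains. It was at 3.72, 3.50 and 5.03 CPM in the Cre libraries and at 29.8, 21.03 and 4.47 CPM in the floxed libraries. Its log2 fold change was -2.18 ± 0.58 (SE; edgeR adjusted p 0.1903). Without floxed library 3 the adjusted p was 0.00745 in edgeR, and over all alternatives it ranged from 0.00745 to 0.479. Exons of Ciita overlap those of Dexi on the opposite strand, and the strand setting of the counting is not given. Dexi was at 10.9, 9.71 and 8.41 CPM in the Cre libraries and at 13.7, 11.9 and 10.2 CPM in the floxed libraries, a narrower range than that of Ciita.

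The genes for peptide exchange differed less between the groups. H2-DMa was at 261, 232 and 256 CPM in the Cre libraries and at 366, 299.7 and 292 CPM in the floxed libraries. All 3 Cre values lay below all 3 floxed values, at a log2 fold change of -0.35 ± 0.09 (SE; adjusted p 0.191 in edgeR and 0.0138 in DESeq2). Annotated exons of H2-DMa overlap those of Brd2, a gene of the opposite strand at 523, 446 and 493 CPM in the Cre libraries and 519, 554 and 645 CPM in the floxed libraries. The part of Brd2 reads in the H2-DMa values was not tested.

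H2-DMb1 resembled the chains rather than its partner H2-DMa. It was at 60.4, 63.6 and 64.3 CPM in the Cre libraries and at 144, 113 and 63.2 CPM in the floxed libraries, so that floxed library 3 lay inside the narrow Cre range. Its log2 fold change was -0.76 ± 0.25 (SE; edgeR adjusted p 0.267). H2-DMb2, which can take the place of H2-DMb1, was at 16.3, 13.8 and 17.9 CPM in the Cre libraries and at 21.3, 18.7 and 18.9 CPM in the floxed libraries. Its 3 Cre values lay below all floxed values, with a log2 fold change of -0.30 ± 0.11 (SE; edgeR adjusted p 0.312). Of the 50-base stretches of H2-DMb1 transcripts, 22.7% also occur in H2-DMb2, so reads of these copies may have been split between them or left out, and both values are uncertain. There were 27.1, 21.6 and 27.8 H2-DMb2 counts per 100 H2-DMb1 counts in the Cre libraries and 14.8, 16.6 and 29.9 in the floxed libraries.

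The inhibitory H2-O genes, among the lowest of the set per kilobase, did not follow the chains. H2-Oa was at 1.83, 1.75 and 2.08 CPM in the Cre libraries and at 2.77, 1.75 and 1.85 CPM in the floxed libraries, with overlapping groups and a log2 fold change of -0.17 ± 0.22 (SE), adjusted p 0.814 (edgeR). H2-Ob, the only gene of the 10 above control, was at 1.81, 2.28 and 2.67 CPM in the Cre libraries and at 2.17, 1.55 and 1.65 CPM in the floxed libraries. Its log2 fold change was 0.33 ± 0.22 (SE; edgeR adjusted p 0.599). These values rest on 107, 147 and 144 H2-Ob counts in the Cre libraries and 131, 93 and 94 in the floxed libraries. H2-Oa shares exon positions with the antisense gene BC051537, which had between 0 and 7 counts per library.

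**Figure D2:**
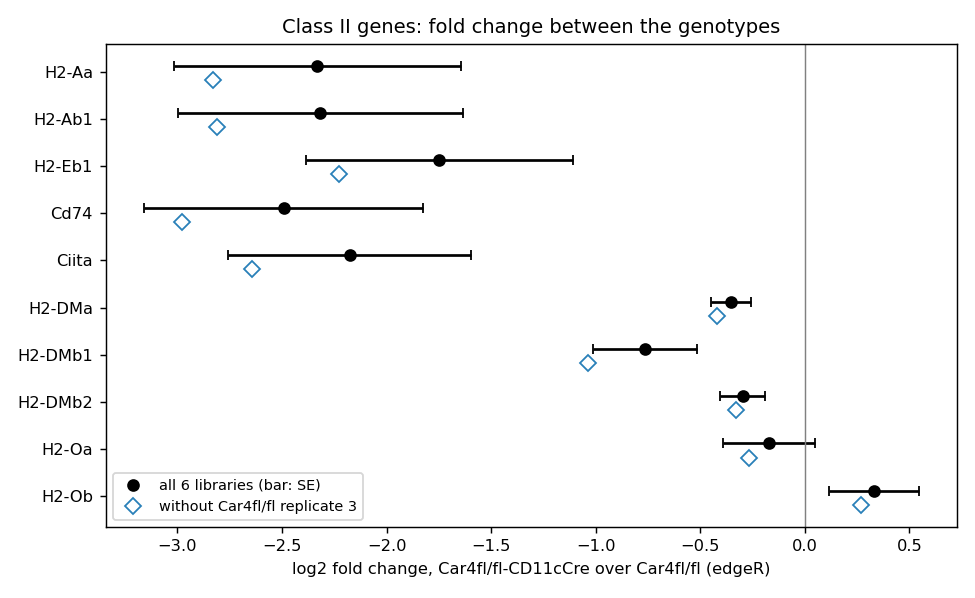
Log2 fold change of Car4fl/fl-CD11cCre over Car4fl/fl (horizontal) for the 10 class II genes (vertical); filled circles are the fit to all 6 libraries with SE bars and open diamonds the fit without Car4fl/fl replicate 3. The chains, Cd74 and Ciita lie between -2.49 and -1.75 with all libraries, the H2-DM genes between -0.76 and -0.30, and H2-Oa and H2-Ob on either side of 0.

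Counted over the set, 9 of 10 genes were below control, as were 50.6% of all tested genes, with a median log2 fold change of -1.26 against -0.0019 over all tested genes. None of the 10 passed an adjusted p of 0.05 in edgeR, in a fit that called 2 of 15147 genes (0.0132%), 1 of them lower (0.0066%). At an unadjusted edgeR p under 0.05, 8 were lower and 0 higher, where 6.28% of all tested genes were lower and 6.54% higher. DESeq2 called Cd74 and H2-DMa lower (adjusted p 0.0192 and 0.0138), with 1.45% of tested genes called lower. In 2 of the 10, H2-DMa and H2-DMb2, all Cre values lay below all floxed values, against 9.22% of tested genes, and in none did they all lie above, against 8.63%. Without floxed library 3 edgeR called 5 of the 10 lower, with 0.333% of all genes called lower in that fit. These were H2-Aa, H2-Ab1, Cd74 (each with an adjusted p of 0.026 to 0.0284), H2-DMb1 (0.0203) and Ciita (0.00745). No reason to leave that library out was found in the labels, and without any filter on low counts, with all 6 libraries, edgeR called 6 (H2-DMa and the same 5 genes) against 0.665% of genes called lower.

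The floxed libraries differed among themselves in these genes far more than in most others. Among the Cre libraries the highest value was 1.95 times the lowest for H2-Aa, 1.93 for H2-Ab1, 1.97 for H2-Eb1, 1.89 for Cd74 and 1.44 for Ciita, with Cre library 3 the highest in each. The highest floxed value was 9.37 times the lowest for H2-Aa, 9.18 times for H2-Ab1, 8.49 times for Cd74, 8.07 times for H2-Eb1 and 6.67 times for Ciita. Among 11594 genes averaging 1 CPM or more and with at least 10 counts in each floxed library, the median was 1.13 times, and 20 genes (0.173%) reached 5 times. H2-Aa held rank 3, H2-Ab1 rank 4, Cd74 rank 8, H2-Eb1 rank 9 and Ciita rank 13 by this measure. H2-DMb1 spanned 2.27 times, H2-Oa 1.59, H2-Ob 1.41, H2-DMa 1.25 and H2-DMb2 1.13 times. Floxed library 3 held 14.7% of the mean Cd74 level of floxed libraries 1 and 2, 17.6% of their Ciita level and 87.8% of their H2-DMa level. Car4 in floxed library 3 was 61.2% of the mean of the other floxed libraries.

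Within this spread the chains, Cd74, Ciita and H2-DMb1 kept step with one another. Over the 6 libraries Pearson's r of log2 CPM was 1.00 for H2-Aa with H2-Ab1 (exact permutation p 0.00139, 0.0156 adjusted over 45 pairs; Spearman's rho 1.0, exact p 0.00278, 0.0625 adjusted). Cd74 with Ciita had r 0.996 (exact permutation p 0.00139, 0.0156 adjusted) and rho 1.0. Over the 15 pairs of these 6 genes, a grouping made after seeing the values, r lay between 0.966 and 1.00. Because floxed libraries 1 and 2 form a cluster apart from the other 4, r was also taken over those 4. It was 0.996 for H2-Aa with H2-Ab1 and 0.996 for Cd74 with Ciita, but 0.705 for H2-Eb1 with Cd74 and 0.508 for H2-DMb1 with Ciita. Across all 45 pairs the median r was 0.78, and the lowest, -0.27, was that of H2-DMa with H2-Ob.

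H2-Eb1 departed from the other chains in 1 respect, its amount relative to Cd74 in the same library. There were 24.0, 28.0 and 26.2 H2-Eb1 counts per 100 Cd74 counts in the Cre libraries and 15.4, 15.6 and 16.2 in the floxed libraries. The 95% exact binomial intervals, which cover counting error only, ran from 22.7 to 25.4 in Cre library 1 and from 15.3 to 17.1 in floxed library 3. Floxed library 3 therefore had the low class II level of the Cre libraries but the H2-Eb1 to Cd74 proportion of the other floxed libraries. This held for Cd74 as the reference and not for the I-A chains, given below. The exact two-sided permutation p was 0.1, the smallest that 3 libraries against 3 allow, and 0.2 adjusted over the 12 ratios examined, which were chosen after the counts had been seen.

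Relative to Cd74 the I-A chains differed less between the groups. H2-Aa had 28.9 ± 2.43 counts per 100 Cd74 counts in the Cre libraries and 25.1 ± 1.42 in the floxed libraries (SD, n = 3 each), and H2-Ab1 had 39.0 ± 2.12 and 33.9 ± 1.81 in the same order of groups. The groups did not overlap for either, with the same exact permutation p of 0.1. The proportion of H2-Aa to H2-Ab1 counts was nearly constant, at 72.1, 76.5 and 73.1 per 100 in the Cre libraries and 75.2, 73.4 and 73.6 in the floxed libraries. Per 100 H2-Ab1 counts there were 65.2, 68.1 and 66.8 H2-Eb1 counts in the Cre libraries and 44.7, 44.3 and 50.8 in the floxed libraries. Per 100 H2-Aa counts there were 90.4, 89.1 and 91.4 H2-Eb1 counts in the Cre libraries and 59.5, 60.3 and 69.1 in the floxed libraries. In both proportions floxed library 3 lay above the other floxed libraries and below the Cre libraries.

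**Figure D3:**
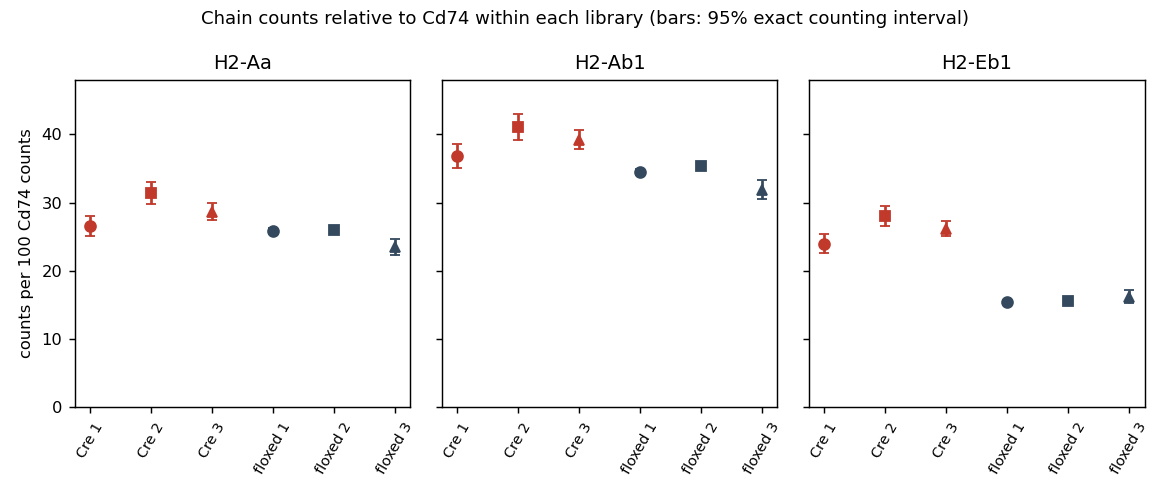
Counts of H2-Aa, H2-Ab1 and H2-Eb1 per 100 Cd74 counts (vertical) in each library (horizontal), with 95% exact binomial intervals for counting error. H2-Eb1 is at 24.0 to 28.0 in the Cre libraries and at 15.4 to 16.2 in the floxed libraries, a wider gap than for H2-Aa or H2-Ab1.

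The transcripts of the DNA-binding partners of the transactivator varied less among the floxed libraries, with the highest value 1.03 to 1.23 times the lowest. None of the 7 genes for RFX, NF-Y and CREB proteins passed edgeR, and 4 lay above and 3 below control (median log2 fold change 0.03). Rfxap was at 14.1, 14.8 and 13.9 CPM in the Cre libraries and at 12.7, 12.9 and 12.5 CPM in the floxed libraries (adjusted p 0.382 in edgeR). Rfxank was at 12.4 ± 0.77 CPM in the Cre libraries and 13.5 ± 0.36 CPM in the floxed libraries (SD, n = 3 each). Nfya and Creb1 averaged 109 and 72.2 CPM in the Cre libraries and 104 and 67.1 CPM in the floxed libraries. Of 7 genes for transcription factors known to act on the Ciita promoters, 0 passed edgeR, 5 were below and 2 above control. Prdm1, a repressor of Ciita, was at 52.5, 54.4 and 57.7 CPM in the Cre libraries and at 69.9, 75.9 and 59.4 CPM in the floxed libraries, with an adjusted p of 0.206 in edgeR and 0.0457 in DESeq2. Spi1, the myeloid factor PU.1, was at 491 ± 21.6 CPM in the Cre libraries and 533 ± 31.7 CPM in the floxed libraries. Klf4 was at 415 ± 61.3 and Cebpb at 888 ± 66.4 CPM in the Cre libraries, against 493 ± 54.8 and 887 ± 24.6 CPM in the floxed libraries.

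Interferon-gamma is the classical inducer of Ciita in macrophages. All 14 genes of its receptor, signalling and targets lay above control (median log2 fold change 0.18), and none passed edgeR. The guanylate-binding protein gene Gbp5 was at 6.71, 7.79 and 6.69 CPM in the Cre libraries and at 5.45, 4.82 and 5.63 CPM in the floxed libraries, with a log2 fold change of 0.42 ± 0.12 (SE; edgeR adjusted p 0.206). Gbp2 was at 30.9, 32.9 and 36.3 CPM in the Cre libraries and at 30.6, 25.5 and 26.5 CPM in the floxed libraries (adjusted p 0.266 in edgeR). All Cre values lay above all floxed values in 4 of the 14 genes, these and 2 others, where 8.63% of all tested genes did so. Ifngr1 and Jak1, which encode a receptor chain and its kinase, had log2 fold changes of 0.07 and 0.05. Ifng itself had no count in 5 libraries and 0.062 CPM in Cre library 2.

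For the genes that generate peptides and trim the invariant chain, the highest floxed value was 1.06 to 1.20 times the lowest, against 9.37 times for H2-Aa. None of 10 passed edgeR, with 6 above and 4 below control. Ctss, the protease that makes the last cut in the invariant chain of macrophages and dendritic cells, was at 3382, 3944 and 3587 CPM in the Cre libraries and at 4104, 3484 and 3568 CPM in the floxed libraries. Lgmn, the asparaginyl endopeptidase, was at 255, 414 and 374 CPM in the Cre libraries and at 274, 235 and 232 CPM in the floxed libraries, with an adjusted p of 0.2802 in edgeR and 0.0284 in DESeq2. Ctsl was at 306, 518 and 477 CPM in the Cre libraries and at 353, 299 and 304 CPM in the floxed libraries. For Lgmn and Ctsl, Cre libraries 2 and 3 were high and Cre library 1 lay among the floxed libraries, a division of the libraries unlike that of the class II chains. Ctsd, which encodes cathepsin D, was at 9446 ± 1586 CPM in the Cre libraries and 8119 ± 539 CPM in the floxed libraries (SD, n = 3 each).

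The 4 genes of class II surface turnover had log2 fold changes between -0.06 and -0.01, and none passed edgeR. March1, the ubiquitin ligase that removes class II from the surface, was at 118, 119 and 121 CPM in the Cre libraries and at 132, 119 and 109.7 CPM in the floxed libraries. March8, a related ligase, was at 90.2, 92.1 and 89.9 CPM in the Cre libraries and at 99.3, 94.4 and 88.2 CPM in the floxed libraries, and Cd83, which counters March1, at 75.7, 64.1 and 77.0 CPM in the Cre libraries and 71.1, 66.3 and 84.0 CPM in the floxed libraries. Of 7 tested co-stimulation genes none passed edgeR, with 2 above and 5 below control. Cd274 was at 325, 391.7 and 329 CPM in the Cre libraries and at 414, 376 and 338 CPM in the floxed libraries, and Pdcd1lg2, which encodes the second PD-1 ligand, at 7.37, 8.55 and 18.5 CPM in the Cre libraries and 6.56, 6.33 and 7.60 CPM in the floxed libraries. Cd40, a receptor for T cell help, was at 0.270, 0.604 and 0.557 CPM in the Cre libraries and at 0.349, 0.183 and 0.229 CPM in the floxed libraries. Icam1 was at 163 ± 0.736 CPM in the Cre libraries and 163 ± 12.4 CPM in the floxed libraries. Of the 7 other tested genes of the class II region, H2-Eb2 (0.116 to 1.08 CPM over all libraries) and Notch4 (0.961 to 2.30 CPM) varied most. Psmb8, a subunit of the immunoproteasome, was at 81.8, 90.6 and 80.8 CPM in the Cre libraries and at 93.8, 81.4 and 80.7 CPM in the floxed libraries, and the peptide transporter gene Tap1 was at 51.6, 53.6 and 50.7 CPM in the Cre libraries and 53.7, 46.5 and 45.4 CPM in the floxed libraries.

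Dendritic cells and B cells carry far more class II than alveolar macrophages, and in sorted bulk samples a different number of such cells and a different amount of RNA per cell cannot be told apart. The summed level of 14 dendritic cell markers, of which 4 reached 1 CPM in every library, was 28.5, 40.7 and 54.2 CPM in the Cre libraries and 38.2, 34.2 and 28.9 CPM in the floxed libraries. That of 14 B cell markers, of which 8 did so, was 180.05, 204.7 and 217.5 CPM in the Cre libraries and 195.9, 191.1 and 183.1 CPM in the floxed libraries. Within each group both sums followed the order of H2-Aa, highest in Cre library 3 and floxed library 1. Both sums were highest of all in Cre libraries 2 and 3, for the dendritic cell list through Ccl17, at 0.947, 12.6 and 16.4 CPM in the Cre libraries and 0.614, 0.582 and 1.601 CPM in the floxed libraries. Without Ccl17 the dendritic cell sum was 27.5, 28.03 and 37.8 CPM in the Cre libraries and 37.6, 33.6 and 27.3 CPM in the floxed libraries. Their part in the class II values was not tested. Batf3 and Ccl22 had the highest mean CPM over all 6 libraries among the dendritic cell markers, at 11.96 and 7.42 CPM on average in the Cre libraries and at 12.2 and 9.90 CPM in the floxed libraries. The defining markers Flt3 and Xcr1 were near 0, at most 0.557 and 0.321 CPM in the Cre libraries and at most 0.266 and 0.449 CPM in the floxed libraries. Among the floxed libraries, floxed library 1 was highest for Batf3 (16.0, 11.6 and 8.98 CPM) and Ccl22 (10.9, 10.2 and 8.61 CPM). It was lowest for Flt3 (0.166, 0.266 and 0.211 CPM), Xcr1 (0.232, 0.449 and 0.370 CPM), Zbtb46, Cd209a, Itgae, Clec10a and Kmo. For the remaining dendritic cell markers it lay between the other floxed libraries. Most of the B cell sum came from Cd22, at 161 CPM on average in the Cre libraries and 159 CPM in the floxed libraries, followed by Ighm at 18.7 and 15.1 CPM in the same order of groups. None of the 14 markers of either list was at 0 in all libraries.

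Of 13 tested dendritic cell markers 9 were above and 4 below control, and none passed edgeR. DESeq2 called Ccl17 (adjusted p 0.0415) and Fscn1 (0.0017) higher and Clec9a (0.0219) lower, 3 genes named here after their values were seen. Over all 15147 tested genes DESeq2 called 345 higher and 219 lower, 3.72% in both directions together. Fscn1, which encodes an actin-bundling protein of mature dendritic cells, was at 1.03, 1.596 and 2.80 CPM in the Cre libraries and at 0.432, 0.416 and 0.669 CPM in the floxed libraries. Clec9a, a receptor of cross-presenting dendritic cells, was at 2.32, 2.88 and 3.42 CPM in the Cre libraries and at 5.63, 5.92 and 3.63 CPM in the floxed libraries, with floxed library 3 the lowest control. Interstitial macrophages, which also carry class II, had a marker sum of 16.3, 49.3 and 87.4 CPM in the Cre libraries and 11.2, 12.8 and 9.13 CPM in the floxed libraries. C1qb was at 1.91, 10.2 and 23.4 CPM in the Cre libraries and at 0.83, 0.948 and 0.739 CPM in the floxed libraries. This sum and C1qb were highest in Cre library 3, which also had the highest class II level among the Cre libraries, and their part in that level was not tested. Sums of monocyte, T cell and alveolar type 2 cell markers were 111 to 119.8, 2.94 to 6.76 and 231 to 299 CPM in the Cre libraries, against 113 to 123, 2.43 to 2.97 and 237 to 253 CPM in the floxed libraries. The markers of highest CPM in these lists were Ace and Treml4, Cd4 and Lck, and Abca3 and Sftpc.

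Genes outside the class II pathway whose library pattern was most like that of H2-Aa, H2-Ab1, H2-Eb1 and Cd74 were ranked by Pearson's r over the 6 libraries. The ranking left out predicted genes, pseudogenes and antigen receptor segments and covered the 534 genes that averaged 1 CPM or more and had an SD of log2 CPM of 0.5 or more, of which 11 reached an r of 0.95. The first 8 were S100a6 (r 0.998), Ndrg1 (0.984), Cdkn2b (0.981), Clec1b (0.981), Cmbl (0.975), Slc1a3 (0.971), Ric3 (0.961) and Plekha6 (0.959), none of which lies on chromosome 17. S100a6, which encodes a calcium-binding protein, was at 4.02, 4.57 and 7.26 CPM in the Cre libraries and at 30.2, 22.4 and 4.91 CPM in the floxed libraries, in the same order of libraries as H2-Aa. Clec1b, the receptor for podoplanin, was at 6.09, 7.39 and 8.71 CPM in the Cre libraries and at 44.9, 37.1 and 9.31 CPM in the floxed libraries. Slc1a3, a glutamate transporter, was at 0.98, 1.07 and 1.13 CPM in the Cre libraries and at 5.54, 5.49 and 1.02 CPM in the floxed libraries. Ndrg1 was at 0.862, 0.775 and 1.15 CPM in the Cre libraries and at 6.13, 5.19 and 0.686 CPM in the floxed libraries. In each of the 8, floxed libraries 1 and 2 were high and floxed library 3 was near the Cre libraries, which follows from how they were picked. None of the 8 passed edgeR, with adjusted p between 0.161 and 0.345.

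**Figure D4:**
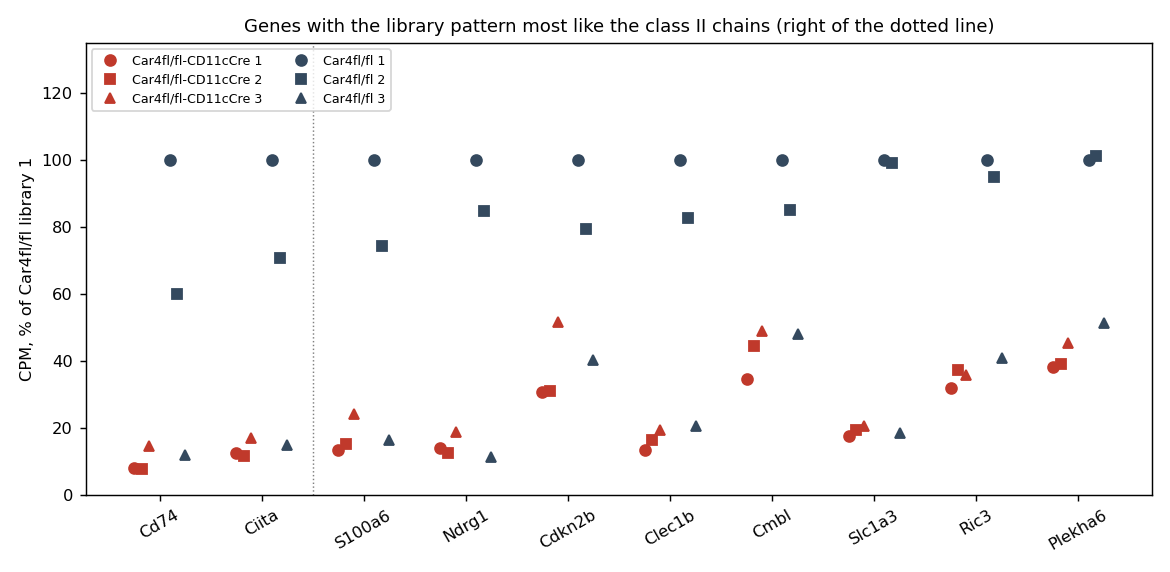
CPM as a percentage of Car4fl/fl library 1 (vertical) for Cd74, Ciita and the 8 genes with the most similar pattern (horizontal), in each library, with Car4fl/fl-CD11cCre in red and Car4fl/fl in dark blue. In all 10 genes Car4fl/fl libraries 1 and 2 stand above the other 4 libraries. The 8 genes were picked for their likeness to this pattern.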

How the data were processed

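Polyadenylated RNA of sorted alveolar macrophages was sequenced from 6 libraries. The authors deposited raw counts, 1 whole number for each gene and library. Per the submitters' processing notes the build was GRCm38 and featureCounts 1.6.4, STAR 2.6.1 and cutadapt 2.5 were among the tools, with no roles stated. Annotation release and strand setting were not given in the sources used here, so reads of overlapping genes cannot be told apart. The labels do not say how mice were bred or paired, and p-values measure the spread between these libraries.

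Columns were assigned to samples by the library names in the labels. The main test was the two-sided quasi-likelihood test of edgeR 4.0.16 (glmQLFit, glmQLFTest; R 4.3.3) on the 15147 of 46078 genes that filterByExpr left at a minimum count of 10, after TMM scaling. Adjusted p-values (Benjamini-Hochberg, all tested genes) were called under 0.05. SE is the absolute log2 fold change over the square root of F. On simulated counts for this comparison (15147 genes) the code recovered 64% of genes changed by a fold of 1.5 and 88% at 2, with 12 false calls among 188. The changed genes were drawn from those averaging 1 CPM or more, and no library was simulated as an outlier. These shares check the code and need not hold for the real libraries, where the fit called 2 genes. Alternatives were DESeq2 1.42.0, limma-voom (limma 3.58.1), RLE and library-size scaling, other filters, robust dispersions, a replicate block and leaving out each library; leaving Ccl17 out of the dendritic cell sum was added after seeing the data. Libraries of a group differed beyond sampling noise (chi-square per degree of freedom 21.7 to 57.6). Exon lengths and coordinates came from GENCODE M21, in which 45229 identifiers were found, and exact permutation tests from SciPy 1.17.1. Intervals and floors cover counting error only.

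The genes and lists were chosen with earlier results of these data known. Named were Car4, all 10 class II genes, from each pathway list the 2 tested members of smallest p and the 2 most abundant, from each marker list the 2 most abundant, and the 8 genes of most similar pattern. Other genes named, such as Tap1, Dexi, Ifng, Notch4, Ccl17, Fscn1, Clec9a, Flt3 and Xcr1, were chosen after their values were seen. Some values that this rule would name are not reported here.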

Additional observations from a re-analysis of the deposited data

How the results depend on the processing

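The count of class II genes called, 0 in edgeR, was 2 by DESeq2, 6 without a filter on low counts and 0 to 5 when each library was left out, the highest without floxed library 3. Over all genes edgeR called 1 higher and 1 lower. DESeq2 called 345 and 219, edgeR without a filter 340 and 183, and robust dispersions left 0 lower. With single libraries left out the counts ranged from 1 to 249 higher (the most without Cre library 1) and from 0 to 52 lower (the fewest without floxed library 2, the most without floxed library 3). Of 152 log2 fold changes of Car4 and the 10 genes under an alternative, 136 kept their direction and side of the threshold, 13 passed it newly, 2 (Car4 with robust dispersions and without floxed library 2) no longer passed, and H2-Oa reversed without floxed library 1 (0.068; range with single libraries left out -0.296 to 0.068). The median r among the 10 genes, 0.78, was 0.64 without the 2 libraries farthest from the median and 0.608 to 0.912 with each library left out. The cause was not tested. Deviations from the group means correlated at r -0.00977, -0.156 and 0.0691 for same-numbered libraries, against -0.224 to 0.239 for differently numbered libraries. With 3 libraries per group, these values cannot show whether same-numbered libraries were paired. With the replicate block 8 genes were called higher and 2 lower, and 0 of the class II genes. H2-Oa and H2-Ob, with 93 to 167 counts per library, had the fewest counts of the 10 genes.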
